A study of Mus musculus with 4 samples.

Results

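A small set of CD8+ tumor-infiltrating lymphocytes (TILs) carried mRNA of the chemokine gene Xcl1 together with that of the chemokine gene Ccl1 or of Penk, the proenkephalin gene. The cells were selected on their own measured values. A cell had to hold Cd3e, Cd8a or Cd8b1, no Cd4, no Foxp3, at least 2 unique molecular identifiers (UMIs, each standing for 1 captured mRNA molecule) of Xcl1 and at least 1 UMI of Ccl1 or Penk. It also had to hold fewer than 2 UMIs of the division genes Mki67 and Top2a together. There were 70 such cells among 8067 CD8+ TILs that passed the same gates without the Xcl1, Ccl1 and Penk conditions, 35 in each library. Since Xcl1, Ccl1 and Penk chose the cells, their values are given as a description.

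The study profiled T cells from B16 melanoma tumors, a transplanted mouse skin cancer line, to ask how VISTA within T cells shapes CD8+ TILs under treatment. VISTA, encoded by Vsir, is an inhibitory receptor of the immunoglobulin family. The VISTA-KO mice were Vsir fl/fl with a CD4-Cre transgene, in which the Cd4 promoter drives Cre in developing T cells of both the CD4 and CD8 lineage, so other cell types of the host kept the gene. The WT mice were Vsir fl/fl littermates without Cre. All mice were 6 to 8 weeks old at inoculation, and all received a peptide vaccine on day 3 and 100 µg anti-CTLA-4 antibody on days 4 and 8. Vaccine and antibody days count from tumor inoculation, while isolation on day 18 is stated as after treatment. By the methods, tumors of 5 to 6 mice per genotype were pooled, a number that differs between passages of the study, and CD4+ and CD8+ cells were sorted. Each genotype therefore has 1 gene expression library and 1 T cell receptor library. Within a library the cells share animals and handling and are not replicates, so no difference below was tested, and genotype cannot be told apart from library. The gene expression libraries held 10224 WT and 9946 VISTA-KO cells after filtering, with 72016854 and 59817786 UMIs. The label of the protocol names a 3′ kit and another label a 5′ library.

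XCL1 draws dendritic cells that carry its receptor XCR1 and cross-present antigen to CD8+ T cells. CCL1 acts through CCR8, a receptor of regulatory and some activated T cells, and Penk is the precursor of the enkephalins, opioid peptides that activated T cells can also make. T cells turn on chemokine and cytokine genes within hours of a signal through the antigen receptor, together with immediate-early transcription factors of the EGR, NR4A and AP-1 families. CRTAM, an adhesion receptor named for class I-restricted T cells, is induced in the same setting and binds CADM1 on dendritic cells.

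The rule fixes the presence of Cd3e and of Cd8a or Cd8b1 and the lack of Cd4 and Foxp3, so these say nothing more about what the cells are. Cd8a stood at 1402 CPM (UMIs of the gene per 1000000 UMIs of the cell group) in the WT cells and at 1337 CPM in the VISTA-KO cells, against 1101 and 1074 CPM in CD8+ TILs with no UMI of Xcl1. Cd8b1 stood at 1183 and 906 CPM against 1817 and 1616 CPM. The natural killer cell gene Ncr1 was at 0 in both libraries. Of 8 natural killer cell markers 3 were at 0 in the WT and 5 in the VISTA-KO cells, and the list summed to 177 and 128 CPM, with Klra7 (77.4 CPM) and Fcer1g (64.1 CPM) most abundant. The gamma-delta T cell list summed to 33.2 and 11.7 CPM, with Trdc at 0 in the WT cells and at 1 UMI in the VISTA-KO cells. Siglech, which defines plasmacytoid dendritic cells, was at 0 in both, as were the B cell genes Cd79a and Ms4a1. The B cell list summed to 188 and 17.5 CPM against 175 and 117 CPM, mostly Ighm. The 6 melanoma genes were at 0 in WT, while in VISTA-KO 4 were at 0 and the list summed to 8.74 CPM (3 UMIs, of Tyrp1 and Dct) against 1.90 CPM. Vsir was at 66.4 CPM in the WT cells and 81.6 CPM in those of VISTA-KO, against 132 and 130 CPM where Xcl1 was 0. The files do not show which part of Vsir its UMIs come from, so this level does not check the deletion.

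Selected cells made up 0.776% of WT CD8+ TILs (35 of 4512, exact Clopper-Pearson 95% interval 0.541 to 1.08) and 0.985% of VISTA-KO CD8+ TILs (35 of 3555, 0.687 to 1.37). The intervals overlap widely. These intervals, and the exact Poisson intervals given with CPM values, cover counting error only. Another 263 WT and 273 VISTA-KO CD8+ TILs held at least 2 UMIs of Xcl1 with neither Ccl1 nor Penk. The cells with no Xcl1 numbered 4006 and 3023. The selected cells were deeper than these, with a median of 8384 UMIs in WT and 9472 in VISTA-KO against 4407 and 4792, and a rule that asks for 3 or more UMIs takes deep cells more often. After thinning every cell to 2000 UMIs before the gates, 19 of 4812 WT and 19 of 3718 VISTA-KO cells met the rule. The selected cells held 361670 and 343281 UMIs in all, so 1 UMI was worth 2.76 and 2.91 CPM.

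Xcl1 ranged from 2 to 222 UMIs per cell in WT, with a median of 10, and from 2 to 536 in VISTA-KO, with a median of 40. At least 20 UMIs were found in 13 WT and 26 VISTA-KO cells. The libraries overlap over nearly their whole range, with the upper part filled mostly by VISTA-KO cells. The pooled level was 3158 CPM in the WT cells and 7460 CPM in those of VISTA-KO, against 1055 and 1206 CPM in the cells with Xcl1 alone. Ccl1 was in 18 WT cells with up to 598 UMIs and in 28 VISTA-KO cells with up to 313. Its pooled level was 3564 and 3566 CPM, but 46.4% of the WT UMIs lay in 1 cell. Penk was in 24 WT cells with up to 188 UMIs and in 10 VISTA-KO cells with up to 74, at 987 and 379 CPM. In each library 1 cell held more of the Penk UMIs than all other cells together, 52.7% in WT and 56.9% in VISTA-KO. Thus 11 WT cells had Ccl1 alone, 17 Penk alone and 7 both, while the VISTA-KO cells divided into 25, 7 and 3.

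**Figure D1:**
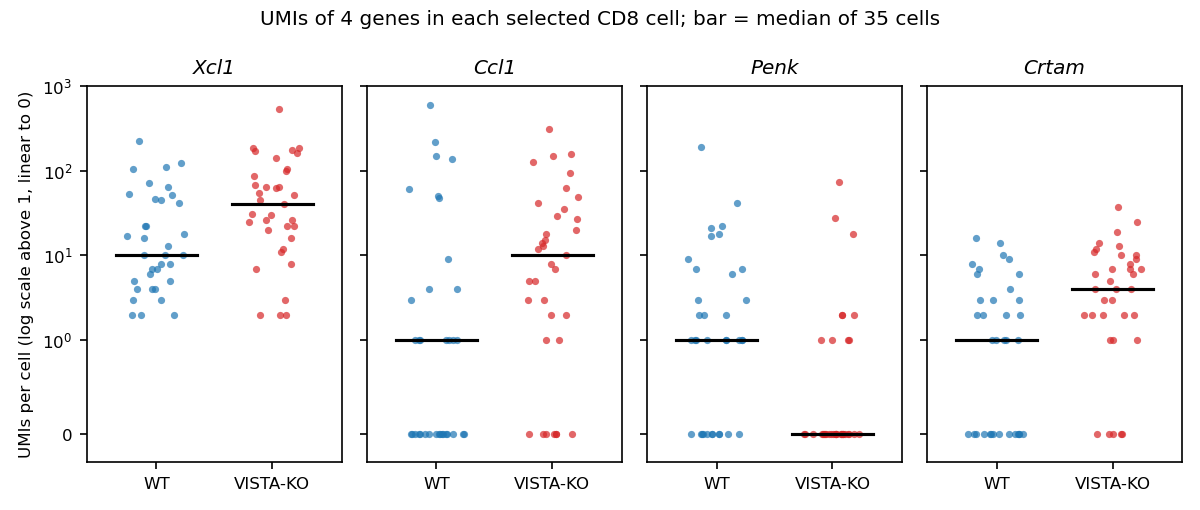
UMIs of Xcl1, Ccl1, Penk and Crtam in each selected cell (vertical axis, logarithmic above 1 and linear to 0) for the 35 WT and 35 VISTA-KO cells, where each point is a cell and the bar is the median. Xcl1 reaches 222 UMIs in WT and 536 in VISTA-KO, and the median of Crtam is 1 in WT and 4 in VISTA-KO.

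These few cells held most of the Ccl1 of the CD8+ TILs within the division limit. They carried 96.8% of its UMIs in WT and 79.9% in VISTA-KO, which the rule in part fixes, since it keeps Ccl1 cells that also have Xcl1. For Penk the shares were 58.4% and 51.4%, and for Xcl1 32.3% and 50.4%. Dividing CD8+ cells count in neither part of these shares. Before the division limit 62 WT and 44 VISTA-KO cells met the other conditions of the rule. Of the Ccl1 UMIs of all cells in the libraries, CD4+ and dividing cells included, the selected cells held 54.6% and 54.1%. They made up 0.342% and 0.352% of those cells. Of all Penk UMIs they held only 8.94% and 4.92%. Regulatory T cells, gated on Cd4 and Foxp3, had Penk at 169 and 182 CPM, with Ccl1 at 11.5 and 4.14 CPM.

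Cells just inside and just outside the rule differed as follows. With exactly 2 UMIs of Xcl1 there were 3 selected cells in each library. With 1 UMI of Xcl1 and some Ccl1 or Penk, 5 WT and 7 VISTA-KO cells stayed outside, and with no Xcl1 and some Ccl1 or Penk 68 and 37 did. Those last cells had a median of 1 UMI of Ccl1 and Penk together. Crtam, which the rule did not use, was at 556 and 27.1 CPM in the selected cells with 2 UMIs of Xcl1, at 20.3 and 2196 CPM in the cells with 1, and at 25.5 and 9.33 CPM in those with none. Over so few cells it thus did not follow the Xcl1 limit, and the VISTA-KO cells just outside had more of it than the selected ones. Within the rule, 10 WT and 5 VISTA-KO cells had exactly 1 UMI of Ccl1 or Penk. Crtam was at 119 and 264 CPM in these and at 345 and 775 CPM in the cells with 2 or more.

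To show where the 2 chemokine genes start, the 250 bases before each start site are given from RefSeq (GRCm38.p6), as the strand of the gene reads, for Xcl1 at chr1:164935523-164935772 and Ccl1 at chr11:82179813-82180062, both on the minus strand. Capitals mark matches, on either strand, to the letters named next.
Xcl1: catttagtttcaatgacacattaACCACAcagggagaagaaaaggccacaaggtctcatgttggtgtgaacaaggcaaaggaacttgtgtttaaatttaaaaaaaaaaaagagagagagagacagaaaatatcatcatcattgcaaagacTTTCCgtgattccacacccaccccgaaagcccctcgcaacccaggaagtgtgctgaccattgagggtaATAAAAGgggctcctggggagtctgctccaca
Ccl1: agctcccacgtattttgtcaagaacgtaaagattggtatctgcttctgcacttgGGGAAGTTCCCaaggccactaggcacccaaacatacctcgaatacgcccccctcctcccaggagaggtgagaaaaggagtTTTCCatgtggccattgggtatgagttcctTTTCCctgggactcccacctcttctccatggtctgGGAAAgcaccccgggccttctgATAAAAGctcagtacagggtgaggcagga
The letters GGAAA, the core bound by NFAT factors, occurred 1 time before Xcl1 and 3 times before Ccl1, and in 55.6% of 32851 promoters of this length. The NF-kB letters (GGGA, any 4 bases, CC) occurred 2 times before Ccl1, on opposite strands of 1 stretch and overlapping, and not before Xcl1, with a share of 17.6% over all promoters. The RUNX letters TGTGGT were found before Xcl1 only (14.0% of promoters). Both had ATAAAAG, 32 and 29 bases before the start, which 4.83% of promoters hold. TGANTCA (AP-1), AAGGTCA (NR4A) and GCGNGGGCG (EGR) were in neither window. Only 6.75%, 4.08% and 4.70% of promoters hold them, so most windows lack them. A match is a stretch of letters and no measured binding. The genes themselves lie at chr1:164931644-164935522 (Xcl1) and chr11:82176666-82179812 (Ccl1), with Penk at chr4:4133536-4138815 and Crtam at chr9:40972798-41004628.

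Crtam was a marker of these cells that the rule itself did not use. It had UMIs in 21 WT cells, up to 16 in a cell, and in 30 VISTA-KO cells, up to 37. Its pooled level was 282 CPM (230 to 342) in the WT cells, and in those of VISTA-KO it was 690 CPM (605 to 784). In cells without Xcl1 it was at 26.9 and 27.0 CPM, and in those with Xcl1 alone at 96.1 and 103 CPM. The log2 ratio of CPM + 5, selected cells over cells with no Xcl1, was 3.17 in WT and 4.44 in VISTA-KO, and 3.66 and 4.67 when the comparison cells were weighted to the same depths. At 2000 UMIs per cell, 31.4% of the WT and 62.9% of the VISTA-KO cells had a Crtam UMI, against 5.50% and 5.07% of cells with no Xcl1. Without thinning it was found in 21 and 30 of the 35 selected cells. In cells that should lack it the share at 2000 UMIs was 0.29% and 0.24% (regulatory T cells). Without thinning it was 0.41% and 0.56% in these, at a median of 5234 and 5151 UMIs. At 2000 UMIs, 0 of 34 and 0 of 26 Siglech+ cells had a UMI. This allows shares of up to 8.82% and 11.5% when the limit is set at 3 counts of the total. The share in the selected cells lay above that in all of these.

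Across 6761 genes at or above 20 CPM in the selected or the Xcl1-negative cells of either library, 162 genes (2.4%) were at least 2-fold higher in the selected cells in both libraries, and 216 (3.19%) were at least 2-fold lower. The 2-fold limit was read on the log2 ratio of CPM + 5. The median ratio over all of these genes was −0.01 in WT and −0.04 in VISTA-KO. With 35 cells a library, a gene can rest on few cells, and 145 of the 162 higher genes had UMIs in at least 5 selected cells of each library. Weighting the comparison cells to the same depths left 83 of the 162 higher genes and 86 of the 216 lower ones. Without the top cell of each gene 83 genes were higher and 419 lower, and with dividing cells kept 97 were higher.

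Il1r2, Cd70, Csf2, Cd81, Nrgn, Nrn1 and Lad1 were among the genes with the highest ratios. Il1r2, a decoy receptor for interleukin-1, stood at 335 and 184 CPM (WT and VISTA-KO) against 6.33 and 1.78 CPM in cells with no Xcl1, in 6 and 7 cells. Cd70, the ligand of CD27, was at 119 and 175 CPM against 0.72 and 2.33 CPM, in 10 and 9 cells. Cd81, a tetraspanin, was at 127 and 210 CPM against 5.02 and 3.26 CPM, with more than 50% of its UMIs in 1 cell of each library (65.2% and 55.6%). Nrgn and Nrn1, which encode neurogranin and neuritin, had log2 ratios of 4.07 and 3.46 and of 3.41 and 3.23. At matched depths these were 3.25 and 1.80 for Nrgn and 3.22 and 1.94 for Nrn1. Nrgn was spread over 17 and 12 cells. Lad1, an anchoring filament gene, had ratios of 3.62 and 4.21. Several of these levels leaned on 1 cell, which in WT held 62.3% of the Nrn1 and 51.6% of the Lad1 UMIs. Without the top cell of each library Nrn1 stood at 75.9 and 76.1 CPM, Lad1 at 44.3 and 70.3 CPM, Cd70 at 62.0 and 100.2 CPM, Cd81 at 47.2 and 96.0 CPM and Il1r2 at 207 and 120 CPM. All stayed past 2-fold over the cells with no Xcl1. Csf2, the gene of the growth factor GM-CSF, had the highest ratios of these 15 genes, 5.16 and 5.38, but lay in 4 WT and 7 VISTA-KO cells, and 92.2% of its WT UMIs were in 1 cell. Without the top cell of each library its ratios were 1.84 and 4.76.

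Il2ra, Egr2, Tnfrsf4, Tnfsf11, Cd83, Plk2 and Ccr8 were also among the genes with the highest ratios. Il2ra, the high-affinity subunit of the interleukin-2 receptor, was in 10 WT and 20 VISTA-KO cells at 77.4 and 163 CPM against 7.29 and 11.4 CPM. Egr2, an early growth response factor, was in 8 and 19 cells at 52.5 and 166 CPM against 4.59 and 6.70 CPM. Tnfrsf4, which encodes OX40, was at 257 and 425 CPM against 37.3 and 29.1 CPM. Its log2 ratios were 2.63 and 3.66, or 1.46 and 2.39 at matched depths. Tnfsf11, the gene of RANKL, had log2 ratios of 3.24 and 2.82, the activation marker Cd83 3.00 and 3.52, and the kinase gene Plk2 2.98 and 3.30 (2.51 and 2.46 without the top cells). At matched depths the ratios of Cd83 were 2.06 and 2.28. Ccr8, the receptor of CCL1, was at 88.5 and 102 CPM against 14.7 and 14.4 CPM, in 11 and 8 cells. Regulatory T cells of the same libraries held several of these mRNAs at higher levels, with Tnfrsf4 at 1585 and 1464 CPM, Ccr8 at 376 and 257 CPM and Il2ra at 208 and 239 CPM. Their Cd81 (299 and 209 CPM) was above that of the selected cells in WT and level with it in VISTA-KO. Crtam (0.78 and 0.90 CPM) and Egr2 (5.26 and 5.95 CPM) were in turn far below the levels in the selected cells. Xcr1, the receptor of XCL1, was at 5.53 CPM (2 UMIs) in WT and 0 in VISTA-KO, and the opioid receptor genes Oprd1, Oprm1 and Oprk1 were at 0.

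**Figure D2:**
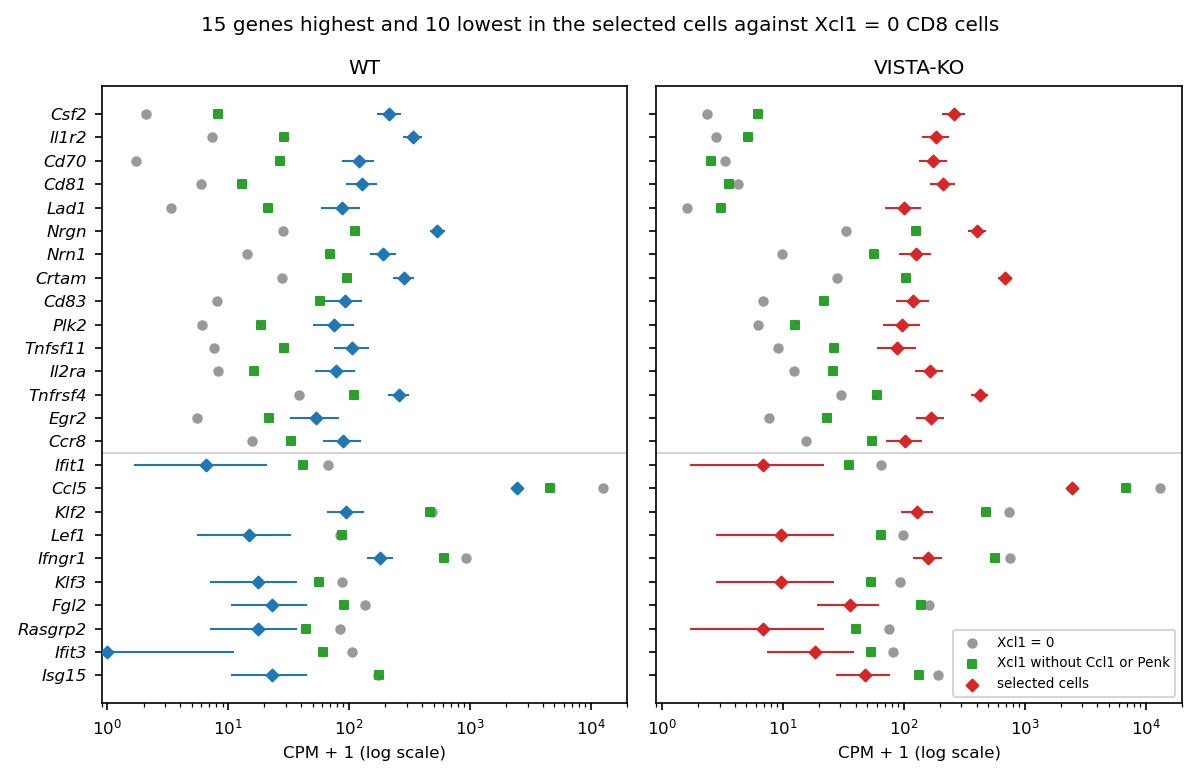
Levels (CPM + 1, logarithmic axis) of the 15 genes with the highest and the 10 with the lowest ratios among genes at 50 CPM or more, for selected cells (diamonds with exact Poisson 95% intervals), cells with Xcl1 alone (squares) and cells with no Xcl1 (circles) of each library. Crtam lies at 282 and 690 CPM in the selected cells and at 26.9 and 27.0 CPM where Xcl1 was 0, while Ccl5 lies below both other groups.

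Genes lower in both libraries included Ccl5, Ifngr1 and Klf2. Ccl5, a chemokine of effector and memory CD8+ T cells, was at 2464 and 2473 CPM against 12685 and 13272 CPM, log2 ratios of −2.36 and −2.42. It was still present in 27 and 29 of the cells. Ifngr1, a chain of the interferon-gamma receptor, was at 180 and 157 CPM against 926 and 750 CPM. Klf2, a factor that keeps T cells in circulation, was at 94.0 and 128 CPM against 486 and 736 CPM. Lef1, Klf3, Rasgrp2 and Fgl2 were also lower in both libraries, with ratios between −2.03 and −2.90. Ifit1 (−2.75 and −2.67) and Isg15 (−2.72 and −1.93) are induced by interferon. Ifit3 had no UMI in the WT cells, which allows up to 8.29 CPM against 104 CPM, and 17.5 CPM against 81.0 CPM in VISTA-KO.

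Gene lists put these genes in groups. Beside each count stands the background, 2.4% of all measured genes higher and 3.19% lower. Of 11 measured TNF superfamily genes 7 were higher in both libraries (Tnfrsf9, Tnfrsf4, Tnfrsf18, Tnfsf8, Tnfsf9, Tnfsf11 and Cd70) and none lower, with a median log2 ratio of 1.41 in WT and 2.18 in VISTA-KO. Tnfrsf9, the gene of the costimulatory receptor 4-1BB, was in 25 and 33 cells at 589 and 1189 CPM against 132 and 136 CPM. Its depth-weighted ratios were 0.91 and 1.73. Of 7 measured cytokine genes 5 were higher (medians 1.96 and 1.22), namely Ifng, Il2, Csf2, Lta and Tgfb1. Interferon-gamma mRNA (Ifng) was in 18 WT and 30 VISTA-KO cells, at 838 and 1008 CPM against 211 and 308 CPM, with 49.5% of the WT UMIs in 1 cell. At 2000 UMIs a cell, 11 WT (31.4%) and 21 VISTA-KO selected cells had an Ifng UMI, against 24.9% and 30.4% of cells with no Xcl1 and 7.89% and 8.12% of regulatory T cells. The interval of the WT share (16.9 to 49.3) includes the share of the cells with no Xcl1. Il2 was in 2 and 3 cells only, and without its top cells its ratios were −0.86 and 0.05, so that its place among the 5 rests on 1 cell a library. The VISTA-KO median of 1.22 is the ratio of Il2 itself.

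Other chemokines of the macrophage inflammatory protein kind stood with Xcl1. Ccl3 was at 2361 and 1518 CPM against 274 and 344 CPM, and Ccl4 at 4700 and 5045 CPM against 1161 and 2104 CPM. In WT a single cell held 42.4% of the Ccl3 and 47.0% of the Ccl4 UMIs, and without the top cells the log2 ratios were 2.34 and 1.92 for Ccl3 and 1.13 and 1.06 for Ccl4. Ccl4 was in fewer of the WT selected cells (51.4%) than of those with no Xcl1 (64.3%), also at 2000 UMIs (37.1%, 21.5 to 55.1, against 49.6%), so its higher WT level lay in few cells. Of 5 chemokine genes measured beside Xcl1 and Ccl1, these 2 were higher in both libraries and Ccl5 lower. Ccl9 and Cxcl10 were past 2-fold in the VISTA-KO library alone, in 5 and 3 cells. Of 17 immediate-early, NR4A and EGR genes 4 were higher (Nr4a1, Nr4a3, Egr2 and Myc) and none lower in both libraries, with medians of 0.83 and 0.53. Nr4a3 was at 102 and 277 CPM against 26.7 and 67.2 CPM, and Myc at 246 and 411 CPM against 64.5 and 72.6 CPM. Fos and Junb stayed within 2-fold, with ratios of 0.23 and 0.20 in WT and −0.66 and 0.09 in VISTA-KO. Jun was at 0.74 in WT and, past 2-fold lower, at −1.18 in VISTA-KO. Among 11 genes that restrain receptor signaling Dusp4 (2.15 and 2.10) and Rgs16 (1.95 and 1.64) were higher and Pag1 and Socs3 lower.

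Inhibitory receptors had no common direction. Of 11 measured 2 were higher, Cd160 (387 and 332 CPM against 124 and 99.0 CPM, in 29 and 31 cells) and Cd200 in 8 and 7 cells, and Entpd1 was lower. Pdcd1, the gene of PD-1, had ratios of 0.19 and −0.52, Lag3 0.92 and 0.76, and Havcr2, the gene of TIM-3, 1.07 and 0.80. Ctla4, the gene of CTLA-4, had −0.04 in WT and, past 2-fold lower, −1.63 in VISTA-KO. Of the receptors related to CRTAM in binding nectins, Cd226, Cd96 and Tigit stayed within 2-fold, and Pvrig had 0 UMIs in WT, against 23.5 CPM, and 5.83 CPM in VISTA-KO, against 27.4 CPM. Of 9 exhaustion transcription factors Rbpj was higher (1.05 and 1.04, depth-weighted 0.68 and 0.55) and Prdm1 lower. Tox had ratios of 0.30 and −0.55.

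Of 7 measured interferon-stimulated genes 5 were lower in both libraries and none higher. The median was −2.67 in WT and −1.93 in VISTA-KO, or −1.55 in WT with the 2 genes that had no UMI set at 3 counts. At matched depths the medians were −2.20 and −1.25. Of 11 progenitor and memory genes 4 were lower (Lef1, Il7r, Klf2 and S1pr1) and Ccr7, a lymph node homing receptor, was higher, at 254 and 335 CPM against 86.3 and 138 CPM. Of 7 receptors of the interleukin-2 family Il2ra was higher and Il7r lower. Of 10 tissue residency genes 3 were lower, Itga1 (−2.43 and −1.70) and Cxcr3 (−1.06 and −2.18) among them, and none was higher. Of 10 measured cytotoxic genes only Gzmk was lower in both libraries (−2.73 and −1.57) and none was higher. Within WT alone 6 of the 10 were past 2-fold lower and none higher, with a median of −1.05, beside 6.57% of all genes lower and 4.69% higher in that library. Within VISTA-KO 1 was lower and 1 higher (Gzmc, in 2 cells), with a median of −0.29, beside 9.94% and 7.28% of all genes. None of 9 glycolysis genes passed 2-fold in both libraries, and their medians of 0.38 and 0.34 became −0.02 and −0.03 at matched depths. None of 9 heat shock genes did either. Mitochondrial genes made up a median of 0.982% and 0.758% of the UMIs, against 0.879% and 0.884%.

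**Figure D3:**
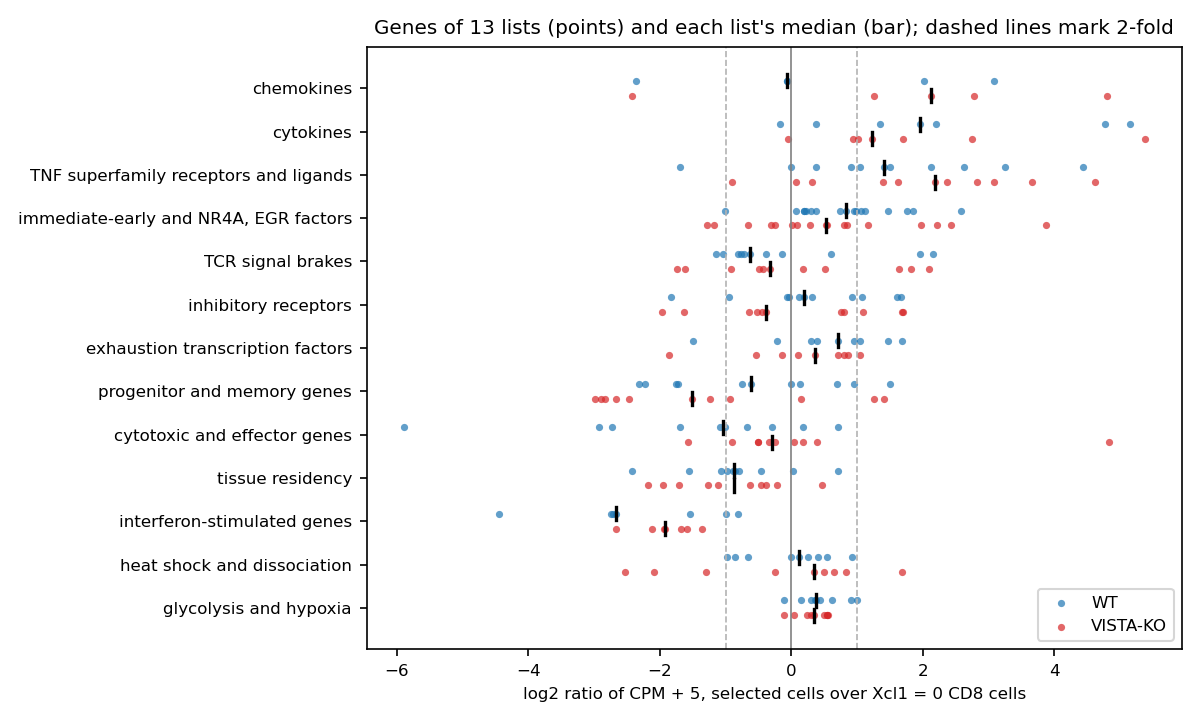
Log2 ratios of CPM + 5, selected cells over cells with no Xcl1, for the measured genes of 13 lists (1 point per gene and library, black bars at each list's median, dashed lines at 2-fold). TNF superfamily genes have medians of 1.41 and 2.18 and interferon-stimulated genes of −2.67 and −1.93, while the glycolysis genes lie near 0.

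Lists of other cell types were counted in the same way. Of 5 measured myeloid genes none was higher in both libraries and Lyz2 was lower. Within WT alone 3 were lower and none higher, beside 6.57% and 4.69% of all genes. Within VISTA-KO 1 was lower and 2 were higher, beside 9.94% and 7.28%. Their medians were −2.48 in WT and 0.96 in VISTA-KO, or −3.31 and −0.74 at matched depths. Their summed level was 418 and 731 CPM against 650 and 350 CPM, most of it Cd74 (357 and 443 CPM), and 1 of 10 genes was at 0 in WT. The plasmacytoid dendritic cell list had 1 higher gene, Irf8 (326 and 536 CPM against 76.3 and 84.3 CPM), which activated T cells also express. Of the list for CD4+ and regulatory T cells Il2ra was higher, while Cd4 and Foxp3 were at 0 by the rule. Ikzf2, which encodes Helios, had ratios of 1.68 and 0.87. Of 6 measured division genes besides Mki67 and Top2a none passed 2-fold in both libraries. The part of such cells in the other values was not tested. Siglech, Ncr1 and Cd79a were at 0, as given above.

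The cells with Xcl1 but neither Ccl1 nor Penk were the nearest comparison. Against them the selected cells still had higher Crtam (log2 ratios of 1.51 in WT and 2.68 in VISTA-KO), Tnfrsf9 (1.49 and 2.31), Il2ra (2.01 and 2.48) and Egr2 (1.16 and 2.66). Ifng was also higher (2.17 and 1.11), but 1 cell held 49.5% of its WT UMIs and 1 held 29.8% in VISTA-KO. The VISTA-KO cell had 2 productive beta chains, and the ratios without these cells were not computed. At 2000 UMIs, 31.4% of the WT selected cells (16.9 to 49.3) had an Ifng UMI, against 21.5% of those with Xcl1 alone. In VISTA-KO 21 of 35 selected cells did (interval of the share 42.1 to 76.1), against 38.2%. Klf2 was lower (−2.25 and −1.86), as was Tcf7, the gene of the progenitor factor TCF-1, with −0.73 and −1.60. Of the 15 genes with the highest ratios, Cd83 in WT (0.63) and Ccr8 in VISTA-KO (0.86) were within 2-fold here and the others were past it. Without the top selected cell of the gene, Nrn1 was at 75.9 and 76.1 CPM against 68.1 and 55.6 CPM, also within 2-fold. In WT, Csf2 (16.9 against 7.24 CPM) and Egr2 (37.3 against 20.8 CPM) then came within 2-fold on CPM + 5 as well. So did Tnfrsf4 (183 against 110 CPM) and Lad1 (44.3 against 20.3 CPM) in WT. At 2000 UMIs, 12.7% and 11.8% of the cells with Xcl1 alone had a Crtam UMI. Progenitor-exhausted-like cells, gated on Tcf7 and Pdcd1 without Havcr2, had Crtam at 55.0 and 37.9 CPM. Cells with Havcr2 and Pdcd1 had it at 17.4 and 24.3 CPM, with Gzmb at 946 and 2259 CPM against 111 and 990 CPM in the selected cells.

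Selected cells differed among themselves by Ccl1. In WT, the 18 cells with Ccl1 had Ifng at 1699 CPM, and the 17 with Penk alone at 78.1 CPM. Ccl3 was at 4431 against 536 CPM, Ccl4 at 9097 against 822 CPM and Tnfrsf9 at 1009 against 219 CPM. Of the UMIs in the cells with Ccl1 a single cell held 52.1% for Ifng, 48.2% for Ccl3 and 51.8% for Ccl4. Without the top cell of each set the Ifng levels were 849 and 46.8 CPM, those of Ccl3 2482 and 93.6 CPM and those of Ccl4 4569 and 105 CPM. Egr2 had a UMI in 8 of 18 cells with Ccl1 and in 0 of 17 with Penk alone. Tcf7 ran the other way, in 5 of 18 (27.8%, 9.7 to 53.5) and in 13 of 17 (76.5%, 50.1 to 93.2), with intervals that overlap slightly. In VISTA-KO the division was less even, 28 against 7 cells. There Crtam was at 788 against 255 CPM and Ifng at 1105 against 574 CPM, but Ccl3 (1497 and 1610 CPM) and Ccl4 (4976 and 5357 CPM) were near equal, and without the top cells they were at 1244 and 704 CPM and at 4173 and 2598 CPM. Egr2 had UMIs in 17 of 28 cells with Ccl1 (60.7%, 40.6 to 78.5) and in 2 of 7 with Penk alone (28.6%, 3.7 to 71.0). Tcf7 had UMIs in 4 of 28 (14.3%, 4.0 to 32.7) and 3 of 7 cells (42.9%, 9.9 to 81.6), and these intervals overlap more. Median depth was 7757 and 8799 UMIs in the WT groups and 9841 and 6353 in the VISTA-KO groups.

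**Figure D4:**
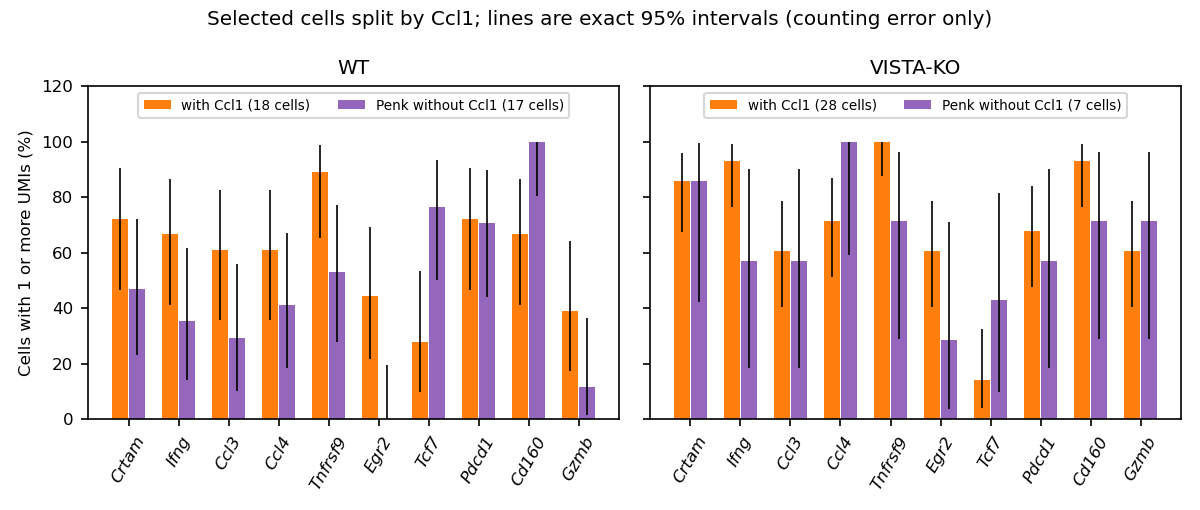
Share of selected cells with at least 1 UMI (vertical axis, percent) of 10 genes, for cells with Ccl1 and cells with Penk but no Ccl1 in each library, with exact Clopper-Pearson 95% intervals as lines. In WT Egr2 was found in 8 of 18 cells with Ccl1 and in none of 17 without, and Tcf7 in 5 of 18 and 13 of 17.

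The cells were also divided by the amount of Xcl1, a count that the rule used and that depends on the depth of a cell. Cells with at least 20 UMIs of Xcl1 had Crtam at 393 and 830 CPM, against 180 and 362 CPM below that. Egr2 was at 98.2 and 228 CPM against 10.6 and 19.6 CPM, and Ifng at 1398 and 1307 CPM against 324 and 303 CPM. In WT 1 cell held 150 of the 242 Ifng UMIs behind the first of these values, and without the top cell of each set the WT levels were 553 and 221 CPM and the VISTA-KO levels 945 and 153 CPM. Ccl3 in VISTA-KO was at 2071 against 215 CPM, while the division by Ccl1 gave near equal levels there. Single cells show how the genes came together. The WT cell with most Xcl1 (222 UMIs of 6872) also held 60 UMIs of Ccl1, 150 of Ifng, 201 of Ccl3, 799 of Ccl4, and 137 of Il2. It had 3 UMIs of Cd8b1 and none of Cd8a. Another WT cell held 188 UMIs of Penk, 219 of Ccl1 and 71 of Csf2. The VISTA-KO cell with 536 UMIs of Xcl1 held 149 of Ccl1 and 37 of Tnfrsf9. A VISTA-KO cell with 313 UMIs of Ccl1 and 103 of Ifng had 2 productive beta chains.

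Between the genotypes, genes at 100 CPM or more in 1 library were ranked. Gzma, Ccl9 and Gzmc had the highest VISTA-KO over WT ratios among them and C2cd4b, Gm42031 and Il2 the lowest, several resting on few cells. Of 3366 genes at 50 CPM or more in either library, 156 (4.63%) were at least 2-fold higher in VISTA-KO and 139 (4.13%) at least 2-fold lower. Leaving out possible doublets gave 322 and 275 such genes, and keeping dividing cells 82 and 74. The counting interval left out 0 for 285 of the 295. For scale, the median size of the log2 ratio was 0.33 in these cells and 0.09 in the same genes in the far more numerous cells with no Xcl1, and 5 of the 295 genes passed 2-fold in the same direction there. With 1 pool per genotype the spread between mice is not known.

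Gzmb, the gene of the cytotoxic protease granzyme B, was at 111 CPM in 9 WT cells and at 990 CPM in 22 VISTA-KO cells, a log2 ratio of 3.11 (2.65 to 3.59). In cells with no Xcl1 it was at 872 and 1416 CPM, so the WT selected cells stood below these and the VISTA-KO cells nearer to them. Cells with Xcl1 alone had Gzmb at 248 and 625 CPM, also higher in VISTA-KO. The selected cells stood below these in WT and above them in VISTA-KO. Gzma had 1 UMI in WT and 90 UMIs in 6 VISTA-KO cells (5.10, 3.68 to 5.79). In cells with no Xcl1 its ratio ran the other way (−0.84), from 458 CPM to 254 CPM. Gzmc lay in 2 VISTA-KO cells, with 81.5% of its UMIs in 1. Of 8 cytotoxic genes at 50 CPM 5 were higher in VISTA-KO and none lower, beside 4.63% and 4.13% of all genes. Gzma and Gzmc among the 5 rest on few cells, with 48.9% of the Gzma UMIs in 1 VISTA-KO cell, and without its top cells the Gzmk ratio of 1.10 was 0.97. Hivep3, a zinc finger factor, had UMIs in 5 WT and 16 VISTA-KO cells (2.42), and Spry1, a brake of receptor signaling, in 3 and 7 (2.58). Ccl9 (4.69), Cxcl10 (2.77) and the class II gene H2-Aa (3.78) lay in 5, 3 and 2 VISTA-KO cells, and the H2-Aa ratio of cells with no Xcl1 was −1.28. Of 3 myeloid genes at 50 CPM 2 were higher in VISTA-KO and none lower, with a median of 2.65.

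Jun, an AP-1 subunit, was lower in VISTA-KO, at 131 CPM in 22 cells against 594 CPM in 27 WT cells (−2.14, −2.61 to −1.69). In cells with no Xcl1 the ratio was −0.21. Cd7, a surface marker of T cells, was in 12 WT and 3 VISTA-KO cells (−3.34), and the heat shock gene Hspa1b in 12 and 2 (−2.78). C2cd4b (−3.86) was in 8 and 2 cells, and Ighm (−2.56), an immunoglobulin gene, in 15 and 4. For Gm42031 (−3.63) and Gm43305 (−2.02) the cells with no Xcl1 were also lower in VISTA-KO, by ratios of −2.16 and −1.30. The Il2 ratio of −3.63 rested on 1 WT cell with 99.3% of its UMIs, and without the top cells it was 0.82. Tcf7 was at 169 CPM in 18 WT cells and 55.3 CPM in 7 VISTA-KO cells. At 2000 UMIs the shares were 28.6% (14.6 to 46.3) and 2.86% (0.07 to 14.9), against 24.0% of cells with no Xcl1 in both libraries. Cells with Ccl1, which had Tcf7 in 5 of 18 and 4 of 28, were a larger part of the VISTA-KO cells, and their part in this difference was not tested. Crtam was higher in VISTA-KO by 1.28 (0.94 to 1.62), and Egr2 by 1.57 (0.86 to 2.32). Among cells with Ccl1 the WT and VISTA-KO levels were nearer, at 454 and 788 CPM for Crtam and at 112 and 175 CPM for Egr2. With Penk alone they were 130 and 255 CPM for Crtam and 0 and 128 CPM for Egr2, over few cells. The part of the unequal mix of such cells in these 2 differences was not tested either.

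**Figure D5:**
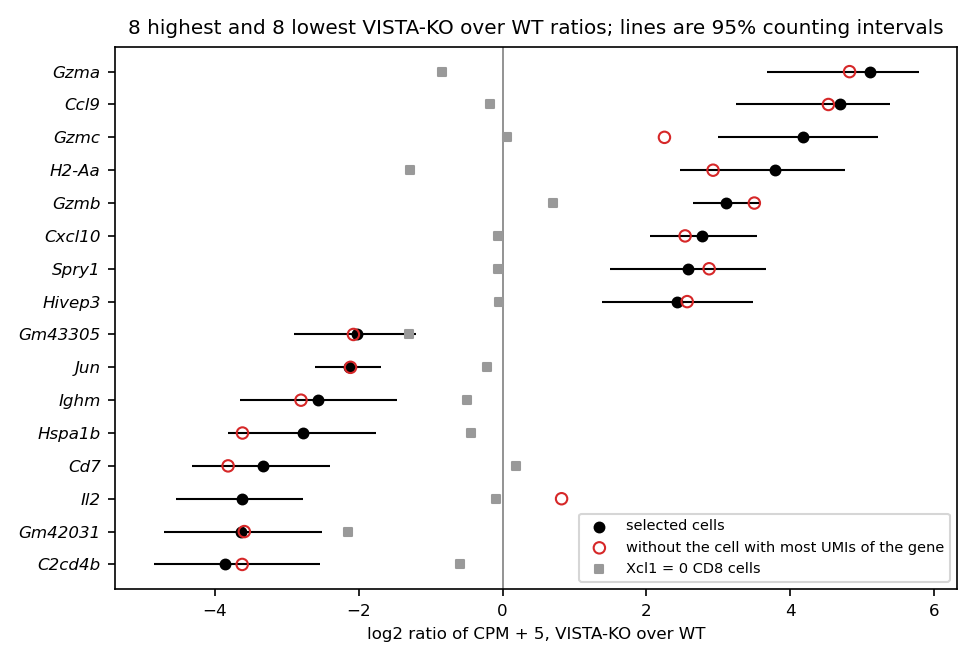
Log2 ratios of CPM + 5, VISTA-KO over WT, for the 8 highest and 8 lowest genes at 100 CPM or more in 1 library, in the selected cells (filled circles, counting 95% intervals as lines), without the cell of each library that has most UMIs of the gene (open circles) and in cells with no Xcl1 (squares). Gzmb lies at 3.11 and Jun at −2.14, and Il2 changes side from −3.63 to 0.82 without the top cells.

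T cell receptor sequences, which the rule did not use, showed many clones. A clonotype, the V genes and CDR3 sequences of the alpha and beta chain with most UMIs, was available for 29 of 35 cells in each library. These fell into 21 WT and 25 VISTA-KO clonotypes. In WT, 22 cells (75.9%, 56.5 to 89.7) belonged to clonotypes with at least 2 CD8+ TILs, near the 81.4% of cells with no Xcl1. In VISTA-KO 12 did (41.4%, 23.5 to 61.1), against 62.0%, and the interval ended just below that share. In the cells with Xcl1 alone the shares were 46.1% and 44.7%. Among selected cells, 9 in WT (31.0%, 15.3 to 50.8) and 3 in VISTA-KO (10.3%, 2.19 to 27.4) were in clonotypes with at least 20 CD8+ TILs. Such clonotypes held 53.1% of the WT clonotyped cells with no Xcl1 and 490 of 2449 of those of VISTA-KO, and the latter share lies within the interval of the selected cells. Clonotypes shared with cells with no Xcl1 held 21 WT cells (72.4%) and 9 VISTA-KO cells (31.0%), so most WT cells had clone mates without Xcl1. None of the selected cells belonged to the largest clonotype of its library, which counted 1063 cells in WT and 292 in VISTA-KO over all cells of the library. It made up 29.4% and 8.62% of the clonotyped cells with no Xcl1, but only 2.59% and 0.44% of those with Xcl1 alone. Its near absence was thus not particular to the selected cells.

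The receptor found most often among the selected cells of each library is shown by the CDR3 nucleotides of its chains, with the first and last codon in capitals, because it marks the clone with most selected cells.
WT alpha, TRAV14-2 and TRAJ26: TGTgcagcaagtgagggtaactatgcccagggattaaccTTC
WT beta, TRBV10 and TRBJ2-4: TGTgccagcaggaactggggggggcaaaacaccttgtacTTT
VISTA-KO alpha, TRAV10 and TRAJ32: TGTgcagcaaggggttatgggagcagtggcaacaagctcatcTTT
VISTA-KO beta, TRBV3 and TRBJ1-4: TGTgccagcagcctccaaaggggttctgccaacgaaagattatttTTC
The WT clonotype counted 7 selected cells among 268 CD8+ TILs (2.61%, 1.06 to 5.31) and was second in size in its library, with 229 cells that had no Xcl1. Its selected cells held 2, 4, 8, 10, 18, 52 and 53 UMIs of Xcl1, and 5 of them had Ccl1. The VISTA-KO TRAV10 clonotype had 3 selected cells among 17 (17.6%, 3.80 to 43.4) and was number 21 by size in its library, with 16, 62 and 143 UMIs of Xcl1 and Penk in all 3. The TRAV14D-1 clonotype consisted of 2 cells, both selected, with 64 and 160 UMIs of Xcl1 and 13 and 313 of Ccl1. The second of these is the cell with 2 beta chains named above, which also had 2 alpha chains, and may be a doublet. Other clonotypes with 2 selected cells used TRAV12D-3 with TRBV12-1 (2 of 7 CD8+ TILs) and TRAV14N-3 with TRBV19 (2 of 6) in WT, and TRAV12-2 with TRBV19 (2 of 43) in VISTA-KO. In the WT TRAV12D-3 and TRAV14N-3 pairs all 4 cells had Penk and none had Ccl1. No cell of the other library carried any of these 6 clonotypes.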

How the data were processed

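Counts of UMIs per gene and cell, and receptor contigs per cell, were deposited by the authors. The labels and the study's methods give Cell Ranger (5.0.0 in the matrix headers), Seurat 4 and the mouse build GRCm38 (mm10). The deposited count matrices held 32285 genes and 10337 WT and 10085 VISTA-KO barcodes. Cells with at least 600 genes and under 30% mitochondrial UMIs were kept, and no doublet caller was run. Cells with 2 productive beta chains or above percentile 95 of UMIs were left out as an alternative. The libraries shared 145 barcodes. None was a selected cell in both, and 1 WT selected cell had a barcode that the VISTA-KO library also held.

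The members and lists were chosen with earlier results of these data known. UMIs were summed per library and cell group and given as CPM, and ratios were log2 of CPM + 5. T cell receptor genes and the genes of the rule were left out of counts of genes. Single genes of 2 lists are not reported here. Named genes were the 15 highest and 10 lowest ratios (smaller of the 2 libraries, at least 50 CPM), the 8 highest and 8 lowest between genotypes (at least 100 CPM), the rule and list genes, Crtam, Vsir and the 3 most frequent clonotypes a library. Intervals were at 95%, Clopper-Pearson for shares and exact Poisson for CPM. Those of log2 ratios were approximate, with both groups' Poisson intervals, after adding 5 CPM, combined in quadrature. For weighting by depth, comparison cells were binned into 10 bins of UMIs per cell. With 1 library per genotype, no test was run. The scripts were tested on simulated data. Promoters came from RefSeq. Python 3.11.15, numpy 2.4.6, scipy 1.17.1, pandas 2.3.3 and matplotlib 3.10.9 were used.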

Additional observations from a re-analysis of the deposited data

Results flagged for a closer look

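For 4 genes the selected cells lay past 2-fold on opposite sides of the cells with no Xcl1 in the 2 libraries. The differences between libraries (log2, VISTA-KO minus WT) were not tested. H2-Aa, a class II antigen presentation gene, had ratios of −3.42 in WT and 1.64 in VISTA-KO, a difference of 5.06, and H2-Eb1, of the same class, −2.33 and 1.65, a difference of 3.98. H2-Aa had UMIs in 1 WT and 2 VISTA-KO selected cells and H2-Eb1 in 2 and 3. Lysmd2 went from 1.20 to −1.81, a difference of −3.01, with UMIs in 11 WT cells and 1 VISTA-KO cell. Utp4, a gene of ribosomal RNA processing, went from −1.22 to 1.05, a difference of 2.27, with UMIs in 2 and 13 cells. None of the 4 stayed past 2-fold on opposite sides at matched depths or without the top cell. At matched depths the VISTA-KO ratio was −0.31 for H2-Aa, −0.05 for H2-Eb1 and 0.85 for Utp4, and the WT ratio of Lysmd2 was 0.66. Without the top cell these were −0.29, 0.12, 0.89 and 0.90.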

How the results depend on the processing

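The alternatives that leave out, for each gene, the cell with its most UMIs, and those that drop barcodes found in both libraries, were chosen after seeing the data. No paired analysis was possible because each genotype had 1 library. The share of selected cells changed most with cells thinned to 2000 UMIs (0.395% in WT, 0.511% in VISTA-KO, with 643 and 538 shallower cells left out) and, in WT, with dividing cells kept (1.22%). Genes higher in both libraries numbered 97 with dividing cells kept, 75 with a pseudocount of 20 CPM, 96 at matched depths and 83 without the top cell of each gene. Lower genes numbered 84 with the pseudocount, 116 at matched depths and 419 without the top cell, where a level can only drop. Genes higher in VISTA-KO numbered 322 without possible doublets (4 WT and 7 VISTA-KO selected cells dropped), 82 with dividing cells, 86 with the pseudocount, 701 with no minimum level and 243 by the mean of each cell's CPM. Lower ones numbered 275, 74, 71, 1136 and 242 in that order, and 263 when scaled without ribosomal, mitochondrial and receptor genes. H2-Aa reversed between genotypes with dividing cells kept (−0.78) and Il2 without the top cell (0.82). The cause was not tested. The other 99 recomputed summary values moved by less than 1.5 times or stayed within their intervals. For counts of genes this compares the number and not which genes. With dividing cells kept, 169 genes were lower, 132 of them among the 216. With at least 2 UMIs of Ccl1 and Penk, 187 genes were lower in VISTA-KO, 98 of them among the 139. Of the values of single genes 971 stayed close to the reported one and 166 moved beyond its counting interval.
The selected cells number 35 a library, so 1 cell can carry a gene, and 3 counts are worth 8.29 CPM (WT) and 8.74 CPM (VISTA-KO). Differences below that were not detectable at this depth.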
